A study of Homo sapiens with 15 samples.

Results

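The muscle acetylcholine receptor and the genes that gather it at the synapse were followed through human bronchial epithelial cells kept with or without PET-NPLs. The 10 genes were CHRNA1, CHRNB1, CHRND, CHRNG and CHRNE, which encode the receptor subunits, and AGRN, LRP4, MUSK, DOK7 and RAPSN, which cluster it. They were listed by name and matched through their Entrez gene numbers, and all 10 were found among the 28395 genes of the count table. The list was chosen from earlier results of these same data, in which several of these genes differed between exposed and control cells at 30 weeks. Every comparison that uses a 30-week sample is therefore given below as a description, with its fold change and standard error (SE) and no p-value. After the filter on low counts 9 of the 10 genes were tested and CHRNE was not. CHRND passed that filter only through the controls at 30 weeks, which were the 3 samples in which it reached the minimum.

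BEAS-2B is an established line of bronchial epithelial cells, immortalized with viral genes and grown here as a monolayer in flasks. Exposed cultures received PET-NPLs, nanoplastics made of polyethylene terephthalate, at 50 µg/mL for 24 h, 15 weeks or 30 weeks, and passage-matched controls were grown without particles for the same time. RNA-seq covered 2 controls and 2 exposed samples at 24 h, the same numbers at 15 weeks, and 3 controls with 4 exposed samples at 30 weeks. By their labels, samples from 24 h and 15 weeks form batch 1, and those from 30 weeks form batch 2. A change from 15 to 30 weeks and the change of batch thus cannot be told apart, while exposed and control cells of 1 time point always share a batch. All samples come from 1 cell line, and nothing in the sources used here says that replicates came from separately grown cultures, so their spread may be technical.

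The muscle acetylcholine receptor is a ligand-gated cation channel of the motor endplate, built from α, β, δ and either γ (fetal) or ε (adult) subunits around a central pore. Motor nerves release agrin, which binds LRP4 and thereby activates the kinase MuSK. MuSK acts together with its adapter DOK7, and the scaffold protein rapsyn then holds the receptors in dense clusters. In muscle, genes of this set are switched on by factors of the MyoD family, which bind E-box motifs in their promoters, and the receptor subunits and rapsyn are best known from muscle, while agrin and LRP4 are also made by many other cell types.

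Annotated promoters are shown because E-boxes are the elements through which MyoD-family factors act on genes of this set. CHRNA1, CHRNB1, CHRND and MUSK were picked by level. In each, every exposed sample lay below every control at the last time point. DOK7, whose fitted level was also lower in exposed cells then but whose groups overlapped, is not printed, and neither is CHRNE. Their E-boxes are counted below, so the printed stretches alone do not show how common E-boxes are in the set. RefSeq (GRCh38.p14) windows of 300 bases, from 250 before to 50 after the annotated start, were at hand for 6 of the 10 genes, and were not for CHRNG, AGRN, LRP4 and RAPSN. Printed here, 5′ to 3′ in the direction of transcription, are the 250 bases before the start of CHRNA1 (chr2:174764473-174764722, minus strand), CHRNB1 (chr17:7444811-7445060, plus strand), CHRND (chr2:232525910-232526159, plus strand) and MUSK (chr9:110668541-110668790, plus strand). Capitals mark each E-box, CANNTG.
CHRNA1: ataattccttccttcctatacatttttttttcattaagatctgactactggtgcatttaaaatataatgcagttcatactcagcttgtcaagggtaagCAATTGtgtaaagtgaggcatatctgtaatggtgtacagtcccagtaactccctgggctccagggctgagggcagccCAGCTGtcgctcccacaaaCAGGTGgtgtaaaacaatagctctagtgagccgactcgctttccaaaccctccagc
CHRNB1: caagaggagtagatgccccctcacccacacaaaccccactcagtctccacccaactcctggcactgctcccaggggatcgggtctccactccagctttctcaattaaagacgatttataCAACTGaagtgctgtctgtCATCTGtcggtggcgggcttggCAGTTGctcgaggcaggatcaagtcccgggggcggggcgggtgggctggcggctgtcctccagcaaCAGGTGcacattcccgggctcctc
CHRND: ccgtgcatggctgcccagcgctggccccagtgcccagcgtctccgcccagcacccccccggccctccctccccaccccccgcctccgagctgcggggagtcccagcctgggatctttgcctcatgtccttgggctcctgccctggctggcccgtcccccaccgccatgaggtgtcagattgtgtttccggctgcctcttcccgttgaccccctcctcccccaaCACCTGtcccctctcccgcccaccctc
MUSK: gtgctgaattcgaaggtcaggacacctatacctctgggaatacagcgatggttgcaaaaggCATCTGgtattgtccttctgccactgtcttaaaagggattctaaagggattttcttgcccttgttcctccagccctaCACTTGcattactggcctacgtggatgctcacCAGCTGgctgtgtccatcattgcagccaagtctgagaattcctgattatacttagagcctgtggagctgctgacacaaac

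Counted over the whole windows, CHRNA1 held 3 E-boxes, CHRNB1 4, CHRND 2 (1 of them at base 27 after the start, outside the stretch printed), CHRNE 4 and MUSK 3. The first DOK7 window held 1 E-box, at base -188, and the second held 0. Among 35116 RefSeq promoter windows, 68.68% held at least 1 E-box, 36.43% at least 2, 15.27% at least 3 and 5.58% at least 4. The form CAGCTG, a subset of the E-boxes, was found at base -75 of CHRNA1, at base -80 of MUSK and at bases -142 and -111 of CHRNE, and 17.95% of all windows held it. An N-box, CCGGAA searched on both strands, is the element through which ETS factors act at endplate genes. It was found at base -66 of CHRND, on the opposite strand, and at base -62 of CHRNE, and 17.25% of all windows held it. These are matches of letters only.

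Total counts ran from 23143202 to 31459990 per sample, so that 3 counts, taken as the floor of detection, corresponded to between 0.0885 and 0.129 CPM (counts scaled by TMM to a common library size). Of 13 bronchial epithelial markers, KRT8 and KRT18 were present in every sample, whereas KRT5, KRT14, TP63, NKX2-1, FOXJ1 and SCGB1A1 stayed below 0.5 CPM in all of them. KRT7 fell from between 1215 and 1414 CPM at 24 h to at most 23.4 CPM later. Exposed replicate 2 at 30 weeks stood apart, with a correlation of log2 CPM of 0.976 to 0.981 to the other exposed samples, which reached 0.991 among themselves. The 6 most abundant small noncoding RNAs took 22.3% to 31.0% of the counts in controls and 17.0% to 21.5% in exposed cells at 30 weeks, against 9.75% to 12.9% in the earlier samples. The genes tested were also fitted without these 6 RNAs and with each replicate left out in turn, among the alternatives given below. Any other part of these differences in the results below was not tested.

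CHRNA1 encodes the α subunit, which carries most of the acetylcholine-binding site. In the 3 controls at 30 weeks it stood at 47.99, 48.5 and 46.7 CPM, from 1116, 1343 and 1305 counts. In the 4 exposed samples of the same time it had 0, 13, 2 and 0 counts, or 0, 0.456, 0.0695 and 0 CPM. The groups did not overlap, and the controls were close to each other. The 8 earlier samples were near the floor too. Both controls at 24 h and both exposed samples at 15 weeks had 0 counts, exposed cells at 24 h had 2 and 0, and the controls at 15 weeks had 3 and 15 counts. The ratio of the summed counts of controls to those of exposed cells at 30 weeks, scaled to library size, was 360 (95% interval 218 to 645, counting error only). The fitted log2 fold change was -8.45 ± 0.50 (SE), and it was -10.74 without exposed replicate 2, which supplied 13 of the 15 counts in exposed cells.

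RAPSN encodes rapsyn, the scaffold that anchors the receptor below the membrane. Its controls at 30 weeks stood at 37.5, 36.2 and 37.5 CPM, from 872, 1003 and 1047 counts. The exposed samples had 2, 5, 2 and 2 counts, or 0.0724, 0.175, 0.0695 and 0.0704 CPM. The groups were again separate. At 24 h the counts were 13 and 13 in controls and 5 and 14 in exposed cells, and at 15 weeks 4 and 12 in controls and 7 and 2 in exposed cells, so that no earlier sample exceeded 0.534 CPM. The ratio of summed counts at 30 weeks was 382 (213 to 765), and the log2 fold change was -8.51 ± 0.30.

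CHRNB1, the β subunit, differed from the genes just described in having a level of its own in every sample. It ran from 5.51 to 7.99 CPM in the 8 samples at 24 h and 15 weeks, whether exposed or not. At 30 weeks it was 43.6, 38.6 and 49.4 CPM in controls and 7.57, 5.47, 7.30 and 6.51 CPM in exposed cells. Of the exposed cells of 30 weeks, 3 lay in the range of the earlier samples and replicate 2 just below it, and the controls lay above all 12 others. The log2 fold change at 30 weeks was -2.71 ± 0.15, a ratio of 6.54 (6.05 to 7.09) of summed counts. Its gene shares 630 exon bases with a non-coding gene on the same strand, so part of its counts may be shared.

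CHRND encodes the δ subunit. It was at 1.98, 1.05 and 2.54 CPM in the controls at 30 weeks, from 46, 29 and 71 counts, and had 3, 1, 0 and 2 counts in the exposed samples. In the 8 earlier samples it had between 0 and 5 counts. Each control of 30 weeks thus held at least 29 counts and no other sample more than 5. The ratio of their summed counts to those of exposed cells was 35.0 (15.7 to 96.8, counting error only). The log2 fold change was -5.02 ± 0.72, and that value depends on the few counts of the exposed cells.

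CHRNG, the fetal γ subunit, lies 3027 bases from CHRND on chromosome 2. Its mean was likewise highest in the 30-week controls, at 2.20 CPM, but its changes were smaller than those of its neighbour. CHRNG was detected in every sample, at 1.49 and 1.26 CPM in controls and 0.978 and 1.03 CPM in exposed cells at 24 h. At 15 weeks it was 0.632 and 0.767 CPM in controls and 1.02 and 1.17 CPM in exposed cells. At 30 weeks it was 1.72, 2.06 and 2.83 CPM in controls against 1.16, 0.701, 1.15 and 1.83 CPM in exposed cells. These last groups overlapped, since exposed replicate 4 was higher than control replicate 1, and the log2 fold change was -0.87 ± 0.28. CHRNG shares 2918 exon bases with TIGD1 on the opposite strand, and the counting strand is not given in the sources used here, so its counts cannot be told apart from those of TIGD1.

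CHRNE, the adult ε subunit, had between 0 and 10 counts in every sample. At 30 weeks its mean was 0.220 ± 0.128 CPM (SD, n = 3) for controls and 0.116 ± 0.104 CPM (SD, n = 4) with exposure. The 2 ranges overlapped, and no fold change was fitted because the gene did not pass the filter. Of its exon bases 1712 are shared with C17orf107 on the opposite strand. As counted, neither CHRNG nor CHRNE showed the separation seen for CHRNA1, CHRNB1 and CHRND. CHRNE had few counts, and those of CHRNG cannot be told apart from those of TIGD1. This is therefore no result about the fetal and adult subunits.

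The genes upstream of rapsyn behaved differently from each other. MUSK, the receptor tyrosine kinase that starts clustering, was present at 24 h, at 2.77 and 1.64 CPM in controls (80 and 47 counts) and 1.96 and 2.10 CPM in exposed cells (46 and 55 counts). At 15 weeks it had fallen to 0.0948 and 0.295 CPM in controls (3 and 10 counts) and 0.217 and 0.162 CPM in exposed cells (7 and 5 counts). All 4 samples at 24 h lay above all 4 samples at 15 weeks. These comparisons use no 30-week sample and were tested. In controls the log2 fold change from 24 h to 15 weeks was -3.46 ± 0.56 (adjusted p = 0.000306, edgeR quasi-likelihood test with Benjamini-Hochberg adjustment), lower in 2 of 2 samples. In exposed cells, a comparison added after seeing the data, it was -3.38 ± 0.58 (adjusted p = 0.000409, same edgeR test), also lower in 2 of 2 samples. Both were past the threshold in each of 11 alternative analyses.

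MUSK was again at 1.85, 1.73 and 3.26 CPM in the controls at 30 weeks, from 43, 48 and 91 counts. In exposed cells it was at 0.0724, 0.315, 0.278 and 0.106 CPM, from 2, 9, 8 and 3 counts. The groups did not overlap, with a log2 fold change of -3.53 ± 0.43 and a ratio of summed counts of 11.9 (7.61 to 19.4). The mean of the controls at 30 weeks, 2.28 ± 0.85 CPM (SD, n = 3), was close to that at 24 h, 2.21 ± 0.80 CPM (SD, n = 2), although these samples belong to different batches. No other gene of the 9 tested passed the threshold between 24 h and 15 weeks in either arm.

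MUSK was 1 of 9 genes called lower from 24 h to 15 weeks in controls, against 12.2% of all genes tested, and 0 of 9 were called higher, against 12.7%. In exposed cells the counts were likewise 1 of 9 lower, against 12.5% of all genes, and 0 of 9 higher, against 13.5%. Closest to the threshold without passing it were CHRNA1 (adjusted p = 0.0693) and CHRNG (adjusted p = 0.0915) in controls and AGRN (adjusted p = 0.0754) and RAPSN (adjusted p = 0.0980) in exposed cells, all by the edgeR test with Benjamini-Hochberg adjustment. Of these CHRNA1 went up, from 0 counts at 24 h to 3 and 15 counts at 15 weeks, and it was called in 3 of 11 alternatives. These shares are no larger than those of all genes.

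AGRN encodes agrin, which epithelial cells also make as a proteoglycan of the basement membrane. It ran from 79.2 to 107 CPM at 24 h. At 15 weeks the controls were at 81.9 and 90.0 CPM and the exposed cells at 61.7 and 61.9 CPM. The 15-week arms did not overlap, but the log2 fold change of -0.48 ± 0.30 did not pass the test (adjusted p = 1, edgeR with Benjamini-Hochberg adjustment). It did when the 4 samples of 15 weeks were fitted alone (adjusted p = 0.00847). The share of all genes called in that fit was not worked out, so the call cannot be set against it. At 30 weeks the controls were at 135, 71.7 and 150 CPM and the exposed cells at 101, 56.7, 74.3 and 102 CPM, and these overlapped. The log2 fold change was -0.51 ± 0.23.

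LRP4, the agrin receptor, which also has roles in Wnt signalling outside muscle, was the single gene of the set with a higher fitted level in exposed cells past the threshold. At 24 h it ran from 5.28 to 7.79 CPM and at 15 weeks from 10.3 to 11.2 CPM over both arms. At 30 weeks the controls were at 5.85, 4.80 and 7.77 CPM and the exposed cells at 12.5, 6.17, 9.70 and 11.6 CPM. Exposed replicate 2 lay between the controls while the other exposed samples lay above them. The log2 fold change was 0.70 ± 0.22, and 0.87 without that replicate. LRP4 shares 515 exon bases with LRP4-AS1 on the opposite strand.

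DOK7, the cytoplasmic adapter of MuSK, was low throughout, between 4 and 29 counts per sample. The controls at 30 weeks were at 1.20, 0.217 and 1.04 CPM and the exposed cells at 0.217, 0.280, 0.139 and 0.282 CPM. Control replicate 2 was as low as the exposed samples, so that the groups overlapped. The log2 fold change was -1.80 ± 0.53, and over its 15 alternatives it lay between -2.26, without control replicate 2, and -1.01, with surrogate variables. Without control replicate 1 it was -1.43.

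At 24 h and at 15 weeks exposure itself moved none of the genes past the threshold: 0 of 9 were called at 24 h and 0 of 9 at 15 weeks by the edgeR test, where 0% of all 16740 genes were called at either time. At an unadjusted p under 0.05 there were 0 of 9 at 24 h and 1 of 9 at 15 weeks, against 277 and 823 of all 16740 genes. The 1 was CHRNA1, with 0 counts in exposed cells and 18 in controls, 15 of them in replicate 2 and 3, the floor, in replicate 1. Both DESeq2 and limma-voom also called 0 of 9 at both times. The main fit estimated the spread of each gene over all 15 samples. Between replicates the chi-square of the counts per gene was 9.08 to 15.7 at 24 h and 15 weeks, and 16.3 to 135 at 30 weeks. A fit of the 15-week samples alone called AGRN, as given above, and the values that follow are from the main fit. The smallest adjusted p of any gene was 1 at 24 h and 0.0747 at 15 weeks (edgeR, Benjamini-Hochberg), so these comparisons of 2 with 2 samples called no gene at all.

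At 30 weeks 7 of the 9 genes tested were past the threshold on the lower side, where 11.7% of all genes were, and 1 of 9 on the higher side, where 12% were. Every exposed sample lay below every control for 5 of the 10 genes, CHRNA1, CHRNB1, CHRND, MUSK and RAPSN, a pattern that 13% of all genes tested showed. Since this contrast entered the choice of the genes, nothing is read from these counts. The change with exposure at 30 weeks differed from that at 15 weeks in 3 of 9 genes, CHRNB1, MUSK and RAPSN, all on the lower side, where 2.08% of all genes did. CHRNB1 and RAPSN were called in 18 of 18 alternatives of that comparison and MUSK in 12 of 18. For the 30-week contrast itself, all 16 alternative analyses called CHRNA1, CHRNB1, CHRND, MUSK and RAPSN. CHRNG was called in 10 of 16, LRP4 in 9 of 16, DOK7 in 9 of 15 and AGRN in 2 of 16. All of these alternatives reuse the samples from which the genes were chosen. Their tallies show only how calls depend on the processing and add no support. When the 30-week samples were fitted alone, or when exposed replicate 3 was left out, 5 of the genes were called. RNA of a whole culture was measured, so fewer cells with a transcript and less of it per cell cannot be told apart.

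The direction of time can be described too, for controls and exposed cells separately. Since 30-week samples entered the choice of the genes, nothing is read from the counts called in either arm. In controls 6 of 9 genes were past the threshold as higher at 30 than at 15 weeks (25.6% of all genes were), namely CHRNA1, CHRNB1, CHRND, CHRNG, MUSK and RAPSN, and LRP4 was the 1 that was lower (24.6% of all genes were). The log2 fold changes were 7.42 ± 0.62 for CHRNA1, 7.23 ± 0.36 for RAPSN, 5.22 ± 0.94 for CHRND, 3.51 ± 0.54 for MUSK, 2.51 ± 0.19 for CHRNB1 and 1.65 ± 0.37 for CHRNG. LRP4 was at -0.74 ± 0.26 and was called in 8 of 12 alternatives, not when either 15-week control or control replicate 1 or 2 of 30 weeks was left out. Control replicate 2 of 15 weeks held 15 of the 18 CHRNA1 counts, 12 of the 16 RAPSN counts, 10 of the 13 MUSK counts and all 3 CHRND counts of that group. Without it the fold changes were 8.91 for CHRNA1, 8.15 for RAPSN, 4.53 for MUSK and 8.71 for CHRND, the last of them set by a group with 0 counts.

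In exposed cells 0 of 9 genes were called between 15 and 30 weeks in either direction by the edgeR test, where 23.3% of all genes were called higher and 22.7% lower. At an unadjusted p under 0.05 there were 0 of 9, against 8843 of all 16740 genes. DESeq2 and limma-voom called 0 of 9 as well, while 1 was called with surrogate variables and 1 without the filter. For 7 of the genes the fitted log2 fold changes lay between -0.73 ± 0.63 for DOK7 and 0.44 ± 0.26 for AGRN. CHRNA1 had the largest, 4.96 ± 2.40, a value that depends on the prior count because the 15-week samples had 0 counts, and 13 of its 15 counts at 30 weeks were in replicate 2. CHRND was at or under the floor of 3 counts in every exposed sample of both times, so no fold is given. CHRNB1 stood at -0.11 ± 0.17 and MUSK at 0.03 ± 0.66. The 2 time courses share their batches, and the comparison of arms at 30 weeks uses the same control samples as the course in controls, so that they are not separate evidence of each other.

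**Figure D1:**
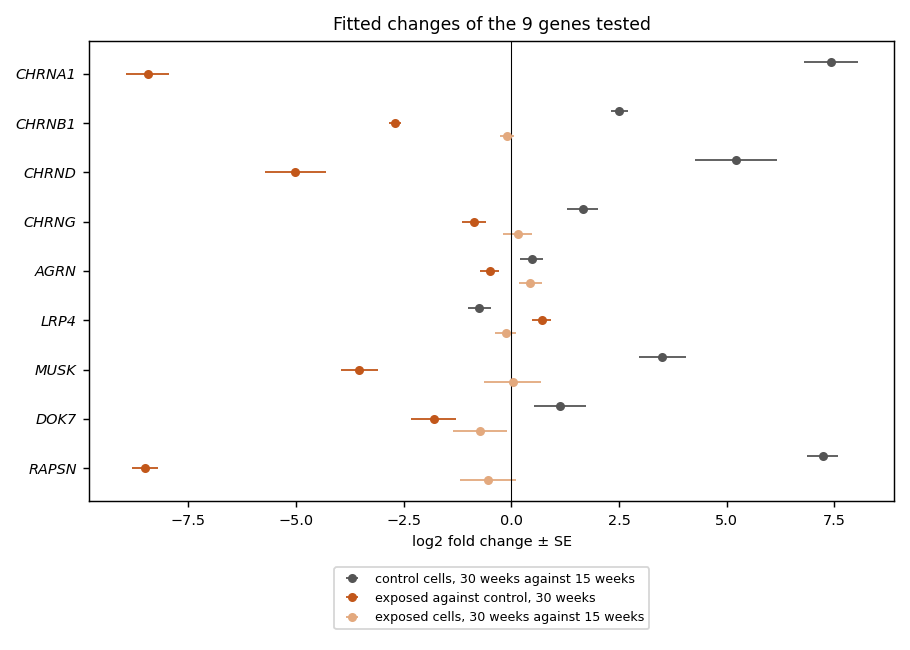
Fitted log2 fold changes with SE bars for the 9 genes tested, in controls from 15 to 30 weeks, in exposed cells over the same interval, and in exposed against control cells at 30 weeks. CHRNA1 and CHRND are not drawn for exposed cells over time, since CHRNA1 had 0 counts at 15 weeks and CHRND at most 3 counts in any exposed sample of these times. The grey points of CHRNA1 and RAPSN lie beyond 7, and their orange points lie below -8.

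Between genes, levels are compared per kilobase of the canonical transcript. In the controls at 30 weeks CHRNA1 stood at 24.1 ± 0.462 CPM per kb (SD, n = 3), RAPSN at 22.8 ± 0.455, CHRNB1 at 17.1 ± 2.10 and AGRN at 16.2 ± 5.67. CHRNA1, RAPSN and CHRNB1 were further apart than their SDs, whereas CHRNB1 and AGRN did not differ beyond their spread. The other 6 genes lay far below, from 0.753 ± 0.184 for LRP4 and 0.626 ± 0.255 for CHRND through 0.549 ± 0.142 for CHRNG, 0.319 ± 0.206 for DOK7 and 0.275 ± 0.102 for MUSK to 0.0886 ± 0.0516 for CHRNE. Neighbours in this lower order overlapped within 1 SD, except MUSK and CHRNE. The δ subunit transcript was thus at a small fraction of the α subunit transcript. AGRN was the highest of the set per kb in each of the other 5 conditions. In exposed cells at 30 weeks the order was AGRN at 11.4 ± 3.02 CPM per kb (SD, n = 4), CHRNB1 at 2.62 ± 0.369 and LRP4 at 1.23 ± 0.344, with every other gene at or below 0.302.

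Over the 6 condition means of log2 CPM, the genes most like CHRNA1, the member with the widest range, were GPR85 (Pearson r = 0.998), DUSP13B (0.997), TRIM72 (0.996), COL25A1 (0.996) and SPN (0.996). Over the 15 samples they were TRIM72 (r = 0.992), JSRP1 (0.989), DUSP13B (0.986), SGCD (0.983) and CDH15 (0.981). TRIM72 repairs muscle membranes and JSRP1 is a protein of the sarcoplasmic reticulum. All of these correlations describe mainly the distance between the 3 controls at 30 weeks and the 12 other samples, 8 of which are from the other batch.

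Other nicotinic and cholinergic genes were looked at as short lists, with 1 gene called in each at 30 weeks. Counts called in these lists and in those that follow stand beside 12% of all genes called higher and 11.7% called lower in the same comparison. With so few cholinergic genes tested, their counts cannot be told apart from these shares. Of 11 other nicotinic subunits 5 were tested and 1 was called at 30 weeks, CHRNA7, a subunit of neuronal-type receptors, which was higher in exposed cells (log2 fold change 0.86 ± 0.27). Its level was 2.40 ± 0.641 CPM for controls (SD, n = 3) and 4.40 ± 1.24 CPM with exposure (SD, n = 4). The list's median log2 fold change was 0.57, against 0.01 over all genes. Of 7 genes of acetylcholine synthesis and breakdown 3 were tested, and BCHE, butyrylcholinesterase, was lower in exposed cells (-2.03 ± 0.50), with a list median of -0.88. BCHE was at 3.44, 2.49 and 2.11 CPM in the 30-week controls and at 0.362, 1.40, 0.243 and 0.599 CPM in exposed cells, so that these groups did not overlap. The vesicular transporter SLC18A3 and the choline transporter SLC5A7 had 0 counts in every sample, and CHAT, which makes acetylcholine, had counts in 1 sample.

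The partners of the MuSK pathway were all expressed, as they are in many cell types. Of 12 agrin-MuSK signalling partners, all tested, 2 were called higher and 4 lower at 30 weeks. Their median log2 fold change was -0.12. The cortical actin regulator CTTN was higher (0.69 ± 0.12) and so was APC (0.49 ± 0.15), while the spectraplakin MACF1 (-0.46 ± 0.15) and the kinase PAK1 (-0.43 ± 0.11) were lower. Of 11 genes of the dystrophin complex and the synaptic laminins 2 were higher and 3 lower, with a median of 0.39. DMD, dystrophin, was higher (1.89 ± 0.21), as was SNTB2 (0.58 ± 0.12), and DTNA, α-dystrobrevin (-2.08 ± 0.29), and SNTB1 (-0.82 ± 0.20) were lower. Of 8 neuregulin and N-box factor genes 7 were tested and NRG1 was lower (-1.20 ± 0.24), with a median of -0.02. Of 5 glycosylation enzymes linked to myasthenia GMPPB was lower (-0.44 ± 0.12), with a median of 0.15.

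Among the factors that bind E-boxes and the ID proteins that block them, MYOD1, MYOG and 3 ID genes were lower in exposed cells. Of 11 such genes 9 were tested, and 0 were called higher and 5 lower in exposed cells at 30 weeks. Their median log2 fold change was -1.09. MYOD1, the factor that starts the muscle programme, was at 106, 65.8 and 84.4 CPM in controls and 0.761, 0.315, 0.313 and 0.458 CPM in exposed cells (log2 fold change -7.52 ± 0.36). It was already at 2.02 and 5.72 CPM in controls and 1.37 and 1.56 CPM in exposed cells at 15 weeks, against at most 0.468 CPM at 24 h. MYOG, which acts after MYOD1, was at 2.71, 2.13 and 3.19 CPM in the 30-week controls and had counts in 1 of the 4 exposed samples (-6.44 ± 0.65). A gene so near 0 outside these controls passes the filter mainly through them, and can hardly come out higher in exposed cells. The inhibitors ID2 (-2.41 ± 0.27) and ID1 (-1.09 ± 0.19) were also lower in exposed cells. The widely expressed factors TCF3 (0.13 ± 0.15), TCF4 (-0.10 ± 0.12) and TCF12 (0.06 ± 0.12), named after their values were seen, were not called. MYF5 and MYF6 had 0 counts in every sample.

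Most of the skeletal muscle markers tested moved in the same samples. Of 23 markers 22 were in the table and 13 were tested, of which 0 were called higher and 10 lower in exposed cells at 30 weeks. Their median log2 fold change was -4.19. Some of them passed the filter through the 30-week controls, as CHRND did, and could then hardly come out higher in exposed cells. JSRP1 averaged 76.0 CPM in these controls and at most 0.270 CPM in any other condition, and CDH15 37.5 and at most 0.388 CPM. The part of such genes in this count and median was not tested. JSRP1 (-9.21 ± 0.34), the cadherin CDH15 (-8.53 ± 0.46) and the troponins TNNT2 (-7.73 ± 0.32) and TNNC1 (-5.05 ± 0.32) changed most. The 3 markers tested but not called were MYH3 (0.15 ± 0.18), NEB (0.02 ± 0.25) and TTN (-0.02 ± 0.14). The summed level of the 22 markers was 428 to 502 CPM in the 30-week controls, where 12 or 13 of them reached 1 CPM, 83.0 to 101 CPM in exposed cells, where 4 to 6 did, and 117 to 194 CPM in the earlier samples. The satellite cell gene PAX7 had 0 counts in every sample, and the mature muscle genes CKM and ACTA1 stayed below 0.3 CPM in all. The part of these markers in the level of the receptor genes was not tested.

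Among markers of epithelium, 3 keratins were higher in exposed cells. Of 13 bronchial epithelial markers 6 were tested, and 3 were higher and 0 lower in exposed cells at 30 weeks (median 0.40), namely KRT8 (2.04 ± 0.16), KRT19 (1.93 ± 0.34) and KRT18 (0.80 ± 0.13). KRT7 (0.01 ± 0.33), CDH1 (-0.12 ± 0.33) and EPCAM (-0.23 ± 0.70) were not called. The summed level of the 13 markers was 314 to 411 CPM in the 30-week controls, 880 to 1097 CPM in exposed cells, 826 to 1036 CPM at 15 weeks and 1987 to 2297 CPM at 24 h. Of 10 neuron and Schwann cell markers 5 were tested, with 3 higher and 1 lower, a median of 0.73 and summed levels of 80.9 to 92.8 CPM in controls and 134 to 148 CPM in exposed cells. Of 6 fibroblast markers 4 were tested, with 1 higher and 2 lower, a median of -1.24 and summed levels of 23.6 to 89.7 CPM in controls and 7.996 to 12.9 CPM in exposed cells. These lists were also not tested for a part in the result.

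**Figure D2:**
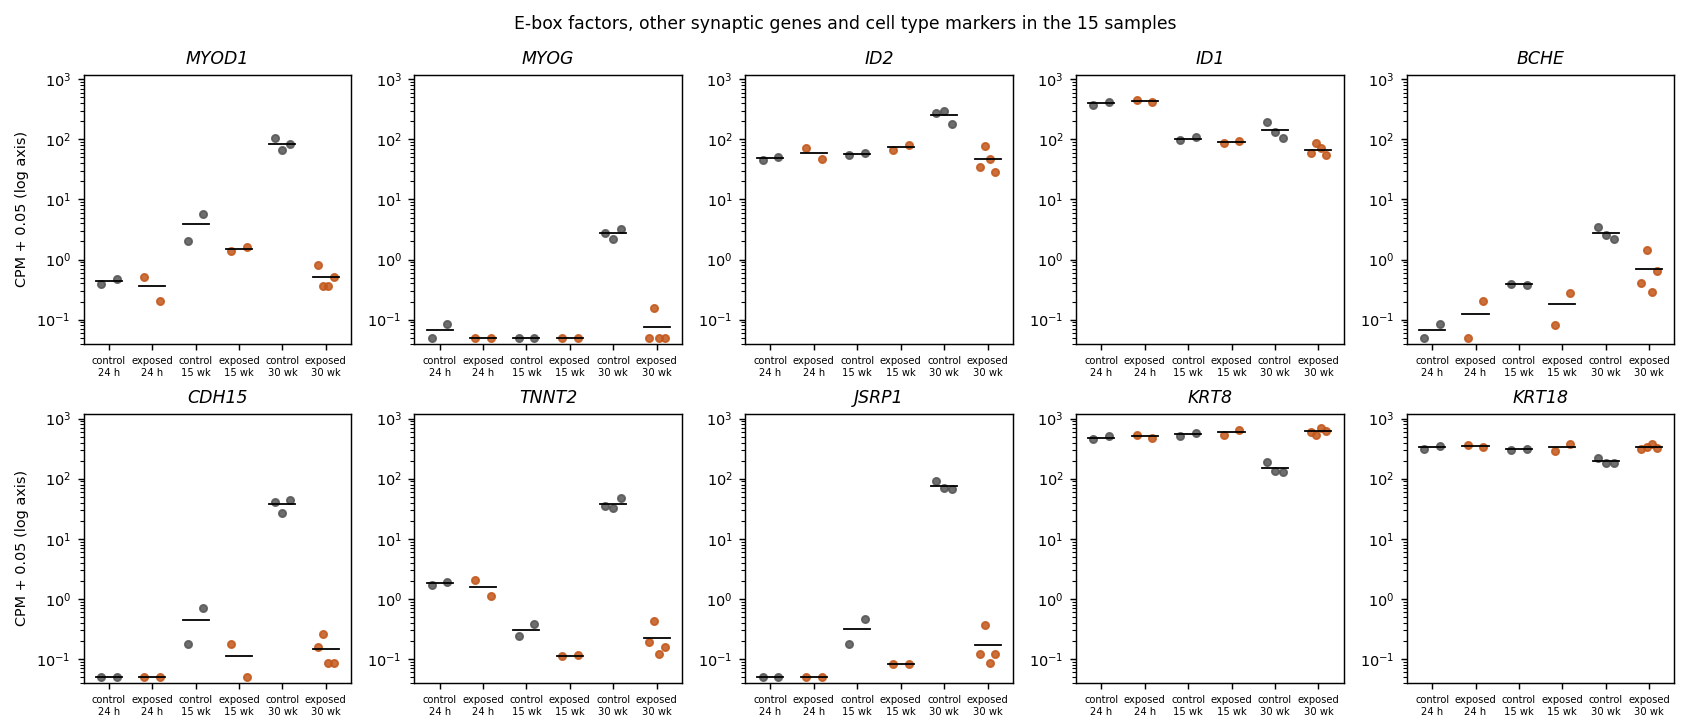
Levels of E-box factors (MYOD1, MYOG), their inhibitors (ID2, ID1), BCHE, muscle markers (CDH15, TNNT2, JSRP1) and keratins (KRT8, KRT18) in the 15 samples, as CPM plus 0.05 on a log axis against the 6 conditions. Points are single samples (grey, control; orange, exposed) and lines are means of the plotted values. MYOD1 lies between 65.8 and 106 CPM in the 30-week controls and below 1 CPM in exposed cells, and KRT8 is lowest in these controls.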

How the data were processed

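The values are raw counts of reads per gene, which the authors deposited without normalization after filtering and trimming reads with Rfastp, mapping them to GRCh38 and counting with Rsubread; the submitters' processing notes also name featureCounts and hg38. The strand setting of the counting is not given in the sources used here. RNA from 15 samples was analysed, and 0 columns were left unused.

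Counts were filtered with filterByExpr (minimum count 10, which came to 0.350 CPM in at least 2 samples; 16740 genes kept), scaled by TMM and fitted in R 4.3.3 with edgeR 4.0.16 (glmQLFit and glmQLFTest), with 1 mean per condition over all 15 samples. Benjamini-Hochberg adjustment covered the 16740 genes, and calls needed an adjusted p under 0.05. CPM are per TMM-scaled library. Ratios of summed counts carry exact 95% intervals that cover counting error only. The procedure was tested on simulated data.

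Genes were named by a rule: all 10 members, up to 4 genes of each other list with the largest change called at 30 weeks and a mean of at least 1 CPM in 1 condition, and the 5 genes most like the member with the widest range. Members and lists were chosen with earlier results of these data known. Markers and factors named as absent, uncalled or at 0 counts were chosen after their values were seen. Alternatives were DESeq2 1.42.0, limma-voom (limma 3.58.1) without and with 2 surrogate variables from sva 3.50.0, each time point alone, filtering dropped or replaced by 10 counts throughout a condition, upper-quartile scaling, counts without 6 abundant small noncoding RNAs, a replicate block and each replicate left out in turn. The change of exposed cells from 24 h to 15 weeks was added after seeing the data.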

Additional observations from a re-analysis of the deposited data

Results flagged for a closer look

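RAPSN in exposed replicate 2 at 30 weeks was far from its group: the gap of its log2 CPM to the nearest sample was 0.963 of the group's range, above Dixon's critical value for 4 samples. The value rests on 5 counts against 2, 2 and 2, and chance flags about 1 in 20 groups. This replicate also held 13 of the 15 CHRNA1 counts.

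For 3 of the 9 genes tested the change with exposure at 30 weeks differed from that at 15 weeks, all in the lower direction. CHRNB1 and RAPSN were called in 18 of 18 alternatives, and MUSK in 12 of 18. MUSK's call was lost without control replicate 1, exposed replicate 1 or exposed replicate 2 of 15 weeks. It was also lost without control replicate 3 of 30 weeks, or exposed replicate 1 or 4 of 30 weeks. The difference in log2 fold change was -2.62 ± 0.25 for CHRNB1, -3.48 ± 0.90 for MUSK and -7.76 ± 0.94 for RAPSN. Without control replicate 2 of 15 weeks it was -4.50 for MUSK and -8.68 for RAPSN, and without exposed replicate 1 of 15 weeks it was -6.68 for RAPSN. The 30-week samples entered the choice of these genes and belong to another batch, so the values are a description. For CHRNA1, with 0 counts in both exposed samples at 15 weeks, the fitted difference was -2.46 ± 13.8 and was not called, and 2 of 18 alternatives called it.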

How the results depend on the processing

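Alternatives were run for the 9 receptor and clustering genes tested, not for genes of the other lists. The fitted changes of these 9 genes printed above kept their direction under every alternative run, except that of DOK7 in controls from 15 to 30 weeks, which was -0.10 with surrogate variables against 1.14, and those of CHRNB1 and MUSK in exposed cells over that interval, which were near 0 and changed sign in 1 and 4 of 13 alternatives. Changes with exposure at 24 h and 15 weeks that are not printed changed sign for most genes in at least 1 alternative, and none of these was called. Of the counts of genes called, that at 24 h stayed at 0 in 13 of 13 alternatives. Fitting each time point alone moved the count from 0 to 1 at 15 weeks (AGRN) and from 8 to 5 at 30 weeks. With surrogate variables it was 5 in place of 3 for the difference between 30 and 15 weeks, 4 in place of 1 for controls and 3 in place of 1 for exposed cells from 24 h to 15 weeks, and 1 in place of 0 for exposed cells from 15 to 30 weeks. Without the filter the last 3 counts were 2, 2 and 1, and DESeq2 gave 2 for exposed cells from 24 h to 15 weeks. The cause was not tested. Shares of all genes called were not worked out for the alternatives, so these counts have no background beside them. With 1 replicate left out, the lowest and highest counts were 5 and 7 at 30 weeks, 0 and 0 at 15 weeks, 2 and 3 for the difference, 1 and 2 for controls from 24 h to 15 weeks (2 without control replicate 1 of 15 weeks), 6 and 8 for controls from 15 to 30 weeks, 0 and 1 for exposed cells over that interval (1 without exposed replicate 2) and 1 and 2 for exposed cells from 24 h to 15 weeks (2 without exposed replicate 1 of 24 h).

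For samples with the same replicate number, deviations from the group means correlated at -0.06 at 24 h and 0.03 at 15 weeks. At 30 weeks the values were -0.12, 0.30 and 0.10, and pairs with different numbers ran from -0.48 to 0.36. With 2 samples per group the deviations mirror each other, so these values cannot decide whether the numbers pair the samples. The main fit treated them as unpaired. With a replicate block 8 genes were called at 30 weeks and 0 at 24 h and 15 weeks. Depth limits CHRNA1, CHRND and RAPSN outside the 30-week controls, and CHRNE in every sample. It also limits MUSK at 15 weeks and in exposed cells at 30 weeks, and DOK7, which was low throughout. In these samples a few counts decide the values.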
